A study of Arabidopsis thaliana with 51 samples.

Results

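Flowers of Arabidopsis thaliana plants that carried the ARE//AGe construct were sorted in this study by flower phenotype, and DNA methylation was compared between those named sMf and those named rMf in 4 alleles. The comparison rests on 8 of the 51 libraries of the series, chosen by their titles alone. They form 4 pairs of an sMf and an rMf library from plants of the same allele: Met1-1 and ddm1-1 in set B, hdp1-1 and hdp2-1 in set C. The labels do not spell out sMf, rMf, AGe or AGp. ARE stands for anti-RdDM element in the series title, where RdDM means RNA-directed DNA methylation. Each library was made from genomic DNA of young flowers pooled from 5 to 10 lines of like phenotype, and each allele has 1 library per phenotype, so there is no replicate within an allele. Plants of the same 4 alleles with Wt flowers and no construct, 1 library each, gave the background.

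In plants, RdDM is the route by which small interfering RNAs and a long non-coding transcript guide a methyltransferase to matching DNA, and it is the main source of new methylation in all sequence contexts. CpG methylation, once set, is copied at replication by the maintenance methyltransferase MET1, for which the Met1-1 allele is named. CHG methylation (H is A, C or T) is kept by chromomethylases that read histone marks, and CHH methylation has no symmetric partner on the other strand, so it must be set again after each replication. DDM1, for which ddm1-1 is named, remodels nucleosomes so that methyltransferases can reach heterochromatin, and HDP1 and HDP2 belong to a histone acetyltransferase complex that helps active demethylation. The floral gene AGAMOUS (AG), around which the measured interval lies, specifies stamens and carpels, and flowers that lose it form extra petals and sepals.

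The deposited table covers 17298 bp (10374202 to 10391499, TAIR10 per the submitters' processing notes), and 5283 of its cytosines were analysed. It names no chromosome; the gene AG (AT4G18960) is on chromosome 4 in the RefSeq gene table of the TAIR10.1 assembly. A level is the percentage of methylation at a cytosine, in whole percent, and a level of a region is the mean over its cytosines. The AGp target (10380602 to 10382801, 2200 bp, with 28 CpG, 57 CHG and 523 CHH cytosines) and the AGe target (10384302 to 10387101, 2800 bp, with 52 CpG, 65 CHG and 632 CHH cytosines) were marked off in another library, Col AGp//AGe sMf, used in none of the tests. No read counts or coverage are given, so the depth behind a level is unknown and a listed 0 may be an uncovered cytosine. In the AGe target every cytosine had a value in all 8 libraries, whereas in the AGp target 467 to 580 of 608 had one, the fewest in Met1-1 rMf. The Wt libraries had values at 250 to 586 cytosines of AGp and at 524 to 741 of 749 in AGe, the fewest in ddm1-1. The table does not separate reads of the construct from reads of the resident gene. A stretch of 500 bp with methylation in CpG only (10377002 to 10377501) served as a check of the Met1-1 label: its CpG level was 5.13% in Met1-1 sMf and 0.833% in Met1-1 rMf, whereas the other 3 alleles had 61.1% to 66.7% in sMf and 62.0% to 66.7% in rMf.

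CpG methylation of the AGp target was higher in sMf than in rMf flowers in all 4 alleles. The CpG level was 23.6% in Met1-1, 44.7% in ddm1-1, 29.0% in hdp1-1 and 21.4% in hdp2-1 sMf flowers, against 17.7%, 11.5%, 17.9% and 15.6% in rMf flowers of the same alleles in that order. The lowest sMf library lay above the highest rMf library, so the groups did not overlap. The differences were 5.92 percentage points in Met1-1, 33.2 in ddm1-1, 11.1 in hdp1-1 and 5.73 in hdp2-1. Their size is uncertain, as the means rest on unequal cytosines. Of 28, 24 had a value in sMf and 26 in rMf flowers of ddm1-1, and 27 and 24 in those of Met1-1. The sMf mean was 29.7% ± 10.5 and the rMf mean 15.7% ± 2.95 (SD, n = 4 alleles each), and the mean difference was 14.0 percentage points ± 13.0 (SD of 4 pairs; two-sided exact sign-flip permutation p = 0.125, adjusted p = 0.667 over 16 tests). With 4 pairs 0.125 is the smallest p this test can give, so no difference here could pass 0.05. Without the ddm1-1 pair the mean difference was 7.57, and with the table's values left at the coordinates where they were deposited, before realignment, it was 4.94. Over CpG cytosines with a value in all 8 libraries, a choice made after seeing the data, it was 15.03.

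Plants without a construct already carried CpG methylation at the low-coordinate end of this target. In the first 300 bp (10380602 to 10380901, 12 CpG cytosines) the CpG level was 18.8% in Met1-1, 42.7% in ddm1-1, 27.6% in hdp1-1 and 16.7% in hdp2-1 sMf flowers. It was 6.33%, 9.33%, 13.0% and 7.92% in rMf flowers of these alleles, and 8.92%, 9.17%, 24.3% and 22.6% in Wt flowers. The rMf flowers of Met1-1, hdp1-1 and hdp2-1 thus lay below Wt flowers of their own allele, and in hdp2-1 the sMf flowers did too. Without these 300 bp, a stretch chosen after the values were seen, the mean CpG difference between sMf and rMf flowers was 10.8 percentage points over 16 CpG cytosines.

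The AGe target showed the same order in CpG. The CpG level was 27.7% in Met1-1, 53.8% in ddm1-1, 47.0% in hdp1-1 and 29.2% in hdp2-1 sMf flowers, against 24.3%, 21.8%, 23.4% and 23.5% in rMf flowers. The 4 rMf libraries lay close together, the sMf libraries spread widely above them, and the groups did not overlap. The differences were 3.40 percentage points in Met1-1, 32.1 in ddm1-1, 23.6 in hdp1-1 and 5.71 in hdp2-1. The sMf mean was 39.5% ± 13.0 and the rMf mean 23.3% ± 1.07 (SD, n = 4 each), with a mean difference of 16.2 percentage points ± 13.9 (exact sign-flip permutation p = 0.125, adjusted p = 0.667). Without a construct the CpG level here was 0.915% in Met1-1, 4.85% in ddm1-1, 4.48% in hdp1-1 and 0.135% in hdp2-1 Wt flowers. Without the ddm1-1 pair the difference was 10.9, and with values at the deposited coordinates it was 2.50. The pair differences of set B and set C were not told apart by a two-sided exact permutation of set (p = 0.667 in AGp and 1.0 in AGe), which with 2 pairs against 2 cannot pass 0.05.

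**Figure D1:**
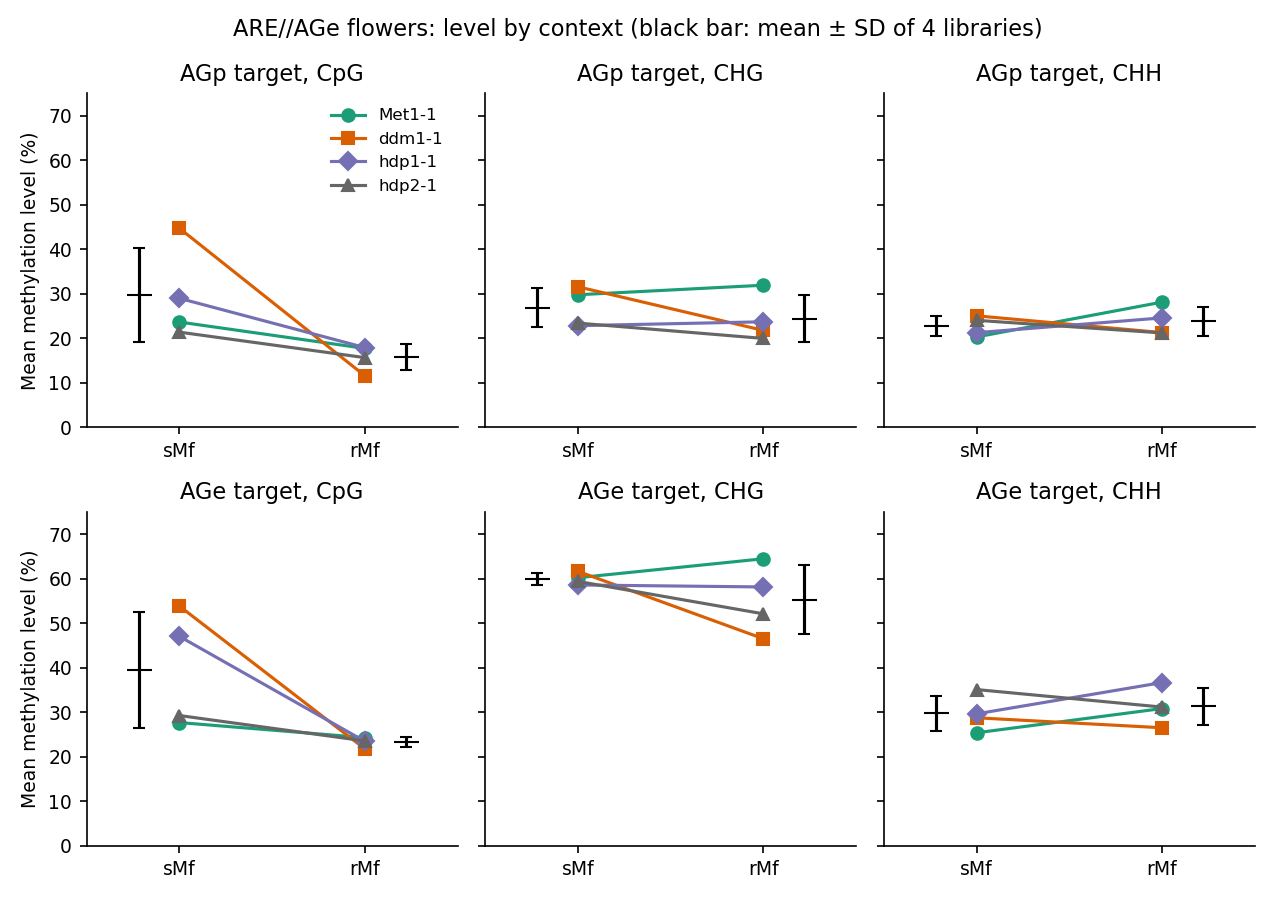
Mean methylation level (percent, vertical axis) of the AGp target (upper row) and the AGe target (lower row) in CpG, CHG and CHH, with sMf on the left and rMf on the right of each panel. Lines join the libraries of an allele and black bars show the mean ± SD of 4 libraries; in CpG all 4 lines slope down to rMf in both targets, whereas in CHH 2 lines slope up and 2 down.

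CHH methylation, averaged over each target, differed between sMf and rMf flowers in opposite directions among the alleles. In the AGp target the CHH level was 20.3% in Met1-1, 25.0% in ddm1-1, 21.2% in hdp1-1 and 24.0% in hdp2-1 sMf flowers, against 28.1%, 21.3%, 24.6% and 21.2% in rMf flowers. The differences were -7.83 percentage points in Met1-1 and -3.33 in hdp1-1, but 3.77 in ddm1-1 and 2.84 in hdp2-1. Their size is uncertain, as the means rest on unequal cytosines: in Met1-1, 484 of 523 had a value in sMf and 400 in rMf flowers. Paired by cytosine among those tested, the median differences had the same directions, at -6 in Met1-1, -2 in hdp1-1, 4 in ddm1-1 and 3 in hdp2-1. In the AGe target the CHH level was 25.4% in Met1-1, 28.7% in ddm1-1, 29.6% in hdp1-1 and 35.1% in hdp2-1 sMf flowers, against 30.8%, 26.5%, 36.7% and 31.2% in rMf flowers. The same 2 alleles were lower in sMf, by -5.45 percentage points in Met1-1 and -7.03 in hdp1-1, and the same 2 higher, by 2.24 in ddm1-1 and 3.94 in hdp2-1. The mean difference was -1.14 ± 5.46 in AGp and -1.57 ± 5.47 in AGe (SD of 4 pairs; exact sign-flip permutation p = 0.75 and 0.625, adjusted p = 0.923 and 0.833), less than the spread between pairs. Each set holds 1 allele of either direction. In the first 300 bp of AGp, a stretch chosen after the values were seen, CHH was higher in sMf in all 4 pairs. The differences there were 6.29 percentage points in Met1-1, 10.55 in ddm1-1, 2.89 in hdp1-1 and 7.42 in hdp2-1. Wt flowers without construct had CHH levels of 1.15% to 5.23% in AGp and 0.946% to 5.61% in AGe.

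CHG methylation lay between the other contexts in its behaviour. In the AGe target, where it was the most methylated context in every library, the CHG level was 60.2% in Met1-1, 61.7% in ddm1-1, 58.6% in hdp1-1 and 59.4% in hdp2-1 sMf flowers, against 64.5%, 46.5%, 58.2% and 52.1% in rMf flowers. The groups overlapped: the sMf libraries lay close together, and the rMf libraries lay on both sides of them. The mean difference was 4.66 percentage points ± 8.45 (exact sign-flip permutation p = 0.375, adjusted p = 0.833). By mean level 3 of 4 pairs were higher in sMf, hdp1-1 by only 0.446, and Met1-1 stood at -4.26. Paired by cytosine, 49 of 65 were lower in sMf in Met1-1 and 42 in hdp1-1, with a median of -5 in each. In ddm1-1 64 were higher and in hdp2-1 63, so the direction in hdp1-1 depends on the measure. The mean difference was 1.16 without the ddm1-1 pair, 7.63 without the Met1-1 pair and 0.538 with values at the deposited coordinates. In the AGp target the CHG level was 29.8% in Met1-1, 31.6% in ddm1-1, 22.8% in hdp1-1 and 23.4% in hdp2-1 sMf flowers, against 31.9%, 21.7%, 23.7% and 19.9% in rMf flowers, a mean difference of 2.56 ± 5.39 (exact sign-flip permutation p = 0.5, adjusted p = 0.833) with 2 pairs in each direction. Without the ddm1-1 pair it was 0.145, without the Met1-1 pair 4.13, on the plus strand alone 0.744, with target edges at 20% -0.33 and with values at the deposited coordinates -1.0. These AGp means rest on unequal cytosines: in Met1-1, 55 of 57 had a value in sMf and 43 in rMf flowers. Paired by cytosine among those tested, 19 were higher in sMf and 16 lower in Met1-1, and 18 higher and 14 lower in hdp1-1. The direction of the AGp CHG difference is thus not settled in these 2 alleles. Pooled over contexts, where CHH cytosines make up most of the sites, the mean difference was -0.03 percentage points in AGp and 0.20 in AGe.

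The balance between contexts differed between the phenotypes in every pair. The ratio of the CpG to the CHH level in the AGp target was 1.17 in Met1-1, 1.79 in ddm1-1, 1.36 in hdp1-1 and 0.889 in hdp2-1 sMf flowers, against 0.630, 0.543, 0.728 and 0.738 in rMf flowers. In the AGe target it was 1.09, 1.87, 1.59 and 0.834 in sMf flowers of these alleles, against 0.787, 0.821, 0.640 and 0.756 in rMf flowers. The AGp ratios, unlike those of AGe, rest on levels over unequal cytosines, as given above. CpG stood above CHH in sMf flowers of 3 alleles and below it in all 4 rMf libraries; in both targets the lowest sMf ratio, that of hdp2-1, exceeded the highest rMf ratio. The CpG difference exceeded the CHH difference by 13.7, 29.4, 14.4 and 2.89 percentage points in AGp and by 8.85, 29.9, 30.6 and 1.77 in AGe, in Met1-1, ddm1-1, hdp1-1 and hdp2-1 in that order. The mean excess was 15.1 ± 10.9 in AGp and 17.8 ± 14.7 in AGe (SD of 4 pairs; exact sign-flip permutation p = 0.125 each, the smallest possible). Against CHG the CpG difference was larger in 4 of 4 pairs in AGp (mean excess 11.4 ± 8.90, p = 0.125 by the same exact test) and in 3 of 4 in AGe (11.6 ± 10.8, p = 0.25), hdp2-1 giving -1.58.

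Outside the targets the comparison was made over the CpG-only stretch and over all remaining cytosines; the stretches next to the targets are described further on. The CpG-only stretch had CpG differences of 4.29 in Met1-1, -0.911 in ddm1-1, 2.79 in hdp1-1 and -2.04 in hdp2-1, with a mean of 1.03 percentage points ± 3.0 (exact sign-flip permutation p = 0.625, adjusted p = 0.833). Over the 467 CpG cytosines outside all 3 stretches the level was 1.63% in Met1-1, 5.05% in ddm1-1, 7.24% in hdp1-1 and 4.54% in hdp2-1 sMf flowers, against 0.527%, 3.43%, 4.42% and 4.51% in rMf flowers. All 4 pairs were higher in sMf there too, hdp2-1 by only 0.0226, with a mean of 1.39 percentage points ± 1.16 (exact sign-flip permutation p = 0.125, adjusted p = 0.667). The groups overlapped, and the mean was 0.917 without the hdp1-1 pair. This set includes stretches next to the targets. The 12 CpG cytosines 900 to 400 bp before AGp differed by 24.4 in Met1-1, 3.17 in ddm1-1, 26.6 in hdp1-1 and 0.25 in hdp2-1. The 13 in the 200 bp before AGe differed by 16.4, 4.54, 3.31 and 0.0 in that order. Wt flowers without construct had 0.482%, 4.27%, 6.78% and 5.04% over these cytosines. In hdp1-1 the window 10388602 to 10388701, far from the targets, had 38.8% in sMf, 0.6% in rMf and 51.5% in Wt flowers. The other 3 pairs were lower in sMf in that window.

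**Figure D2:**
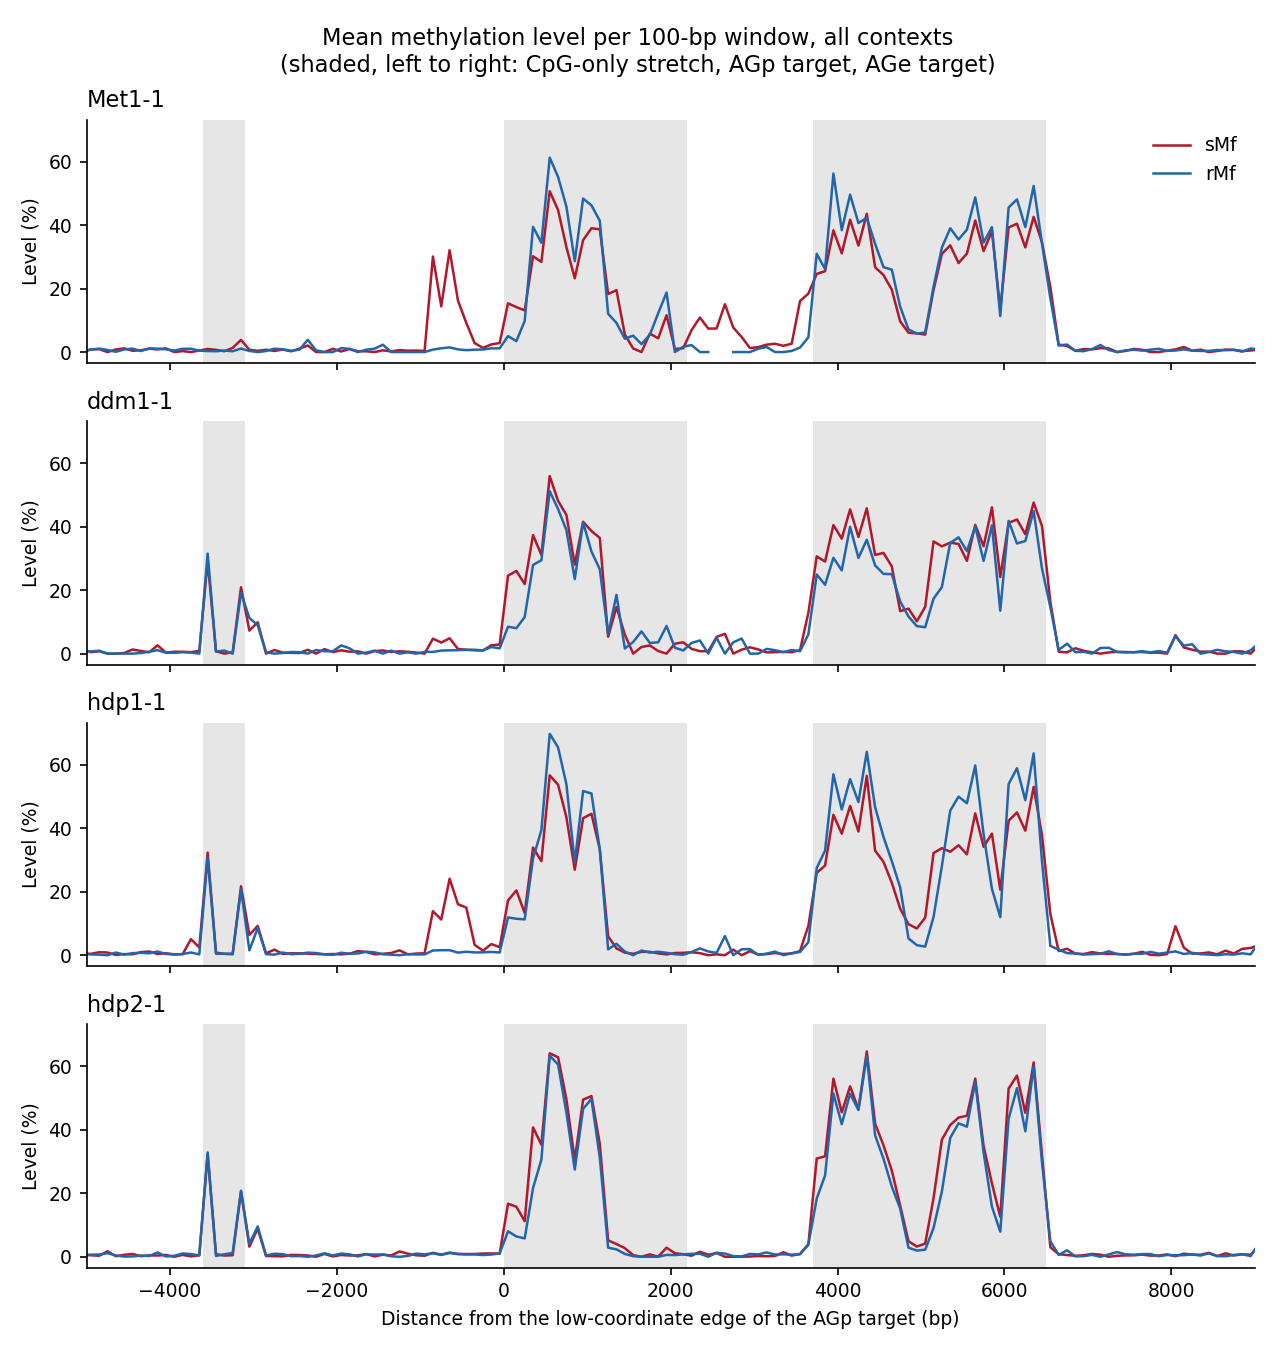
Mean level per 100-bp window over all contexts (percent, vertical axis) against the distance from the low-coordinate edge of the AGp target (bp), with sMf in red and rMf in blue, 1 panel per allele. Between 900 and 400 bp before the AGp edge the Met1-1 and hdp1-1 sMf lines stand at up to 32.1% and 24.1%, and every rMf line stays below 2%.

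Levels varied along each target in both sMf and rMf flowers. Methylation of AGp was concentrated in its first 1200 bp: between 300 and 1200 bp from the low edge (10380902 to 10381801) the level over all contexts was 36.2% in Met1-1, 40.1% in ddm1-1, 40.6% in hdp1-1 and 46.4% in hdp2-1 sMf flowers, against 44.6%, 34.7%, 46.7% and 41.6% in rMf flowers. In the last 1000 bp (10381802 to 10382801) it was 6.24%, 2.44%, 1.40% and 1.68% in sMf flowers of these alleles, against 6.84%, 4.99%, 1.04% and 0.641% in rMf flowers. Wt flowers without construct had 0.390% to 1.29% in these last 1000 bp. The 258 cytosines of this stretch, of 608 in AGp, enter every level of the whole target. AGe had a dip near its middle (10385402 to 10385701), with 5.86%, 13.2%, 10.01% and 4.20% in sMf flowers, against 6.46%, 9.81%, 3.91% and 2.42% in rMf flowers. CpG in this dip, where all 14 CpG cytosines had values, was 4.00%, 20.3%, 18.6% and 5.14% in sMf flowers, against 2.29%, 3.71%, 3.14% and 1.71% in rMf flowers. These stretches were chosen after the values were seen and carry no test.

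The low-coordinate side of the AGp target was the edge at which methylation reached farther in sMf than in rMf flowers in all 4 alleles. The outermost 100-bp window at or above 10%, bridging gaps of at most 5 windows, lay 900 bp beyond the edge in Met1-1, at the edge in ddm1-1, 900 bp beyond it in hdp1-1 and at the edge in hdp2-1 sMf flowers. In rMf flowers it lay 300 bp inside the edge in Met1-1, 200 bp inside in ddm1-1, at the edge in hdp1-1 and 300 bp inside in hdp2-1. Methylation so measured reached farther in sMf by 1200 bp in Met1-1, 200 bp in ddm1-1, 900 bp in hdp1-1 and 300 bp in hdp2-1 (mean 650 bp ± 480, SD of 4 pairs; exact sign-flip permutation p = 0.125, adjusted p = 0.375 over 12 edge tests). In the window at the edge itself (10380602 to 10380701) the level over all contexts was 16.7% in sMf, 8.03% in rMf and 18.6% in Wt flowers of hdp2-1, and 17.2%, 11.9% and 11.9% in those of hdp1-1, so Wt flowers without construct were past 10% there in these 2 alleles. The size depends on the bridging: with no gap bridged the mean was 200 bp, and with windows of at least 20% it was 125 bp.

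Beyond this edge, the 2 alleles with the far reach carried a separate methylated block in sMf flowers. Between 900 and 400 bp before AGp (10379702 to 10380201, 131 cytosines) the level was 21.6% in Met1-1, 3.29% in ddm1-1, 16.1% in hdp1-1 and 1.04% in hdp2-1 sMf flowers, against 0.962%, 0.924%, 1.31% and 0.908% in rMf flowers and 0.473% to 1.12% in Wt flowers without construct. Met1-1 and hdp1-1 sMf flowers stood far above all other libraries, ddm1-1 sMf flowers were next, and hdp2-1 sMf flowers lay among the rMf libraries. All contexts were methylated in the block: CHG reached 45.3% in Met1-1 and 26.9% in hdp1-1 sMf flowers, against 1.23% and 1.36% in their rMf flowers; CpG reached 25.1% and 27.8%, against 0.667% and 1.25%; and CHH reached 15.8% and 12.2%, against 0.938% and 1.31%. In the 400 bp between this block and the target (10380202 to 10380601) the level was 2.31% in Met1-1, 1.90% in ddm1-1, 2.60% in hdp1-1 and 0.991% in hdp2-1 sMf flowers, against 0.972%, 1.48%, 0.907% and 0.757% in rMf flowers, so the block was not continuous with the target. The block was noticed in the values and carries no test of its own.

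Just inside the same edge, levels at the rim of the target were higher in sMf flowers. In the first 300 bp of AGp the level over all contexts was 14.2% in Met1-1, 24.0% in ddm1-1, 16.7% in hdp1-1 and 14.4% in hdp2-1 sMf flowers, against 6.31%, 9.46%, 11.6% and 6.75% in rMf flowers, without overlap. These 300 bp were chosen after the values were seen, and the edge itself was set in an sMf library of another construct. The lack of overlap is thus a description only. Wt flowers without construct had 3.31%, 6.73%, 7.98% and 9.70% there. Over the 500 bp just inside the edge, the span fixed for the test, the sMf level was higher by 1.82, 11.3, 2.35 and 9.77 percentage points in Met1-1, ddm1-1, hdp1-1 and hdp2-1 in that order, a mean of 6.32 ± 4.93. Over the 500 bp just outside it was higher by 2.57, 0.357, 3.78 and 0.217, a mean of 1.73 ± 1.74. Both have p = 0.125 and an adjusted p of 0.375 by the exact sign-flip permutation. Over 1000 bp the means were 1.61 inside and 5.12 outside, over 300 bp the outside mean was 0.869, and without the hdp1-1 pair the 500-bp outside mean was 1.05.

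**Figure D3:**
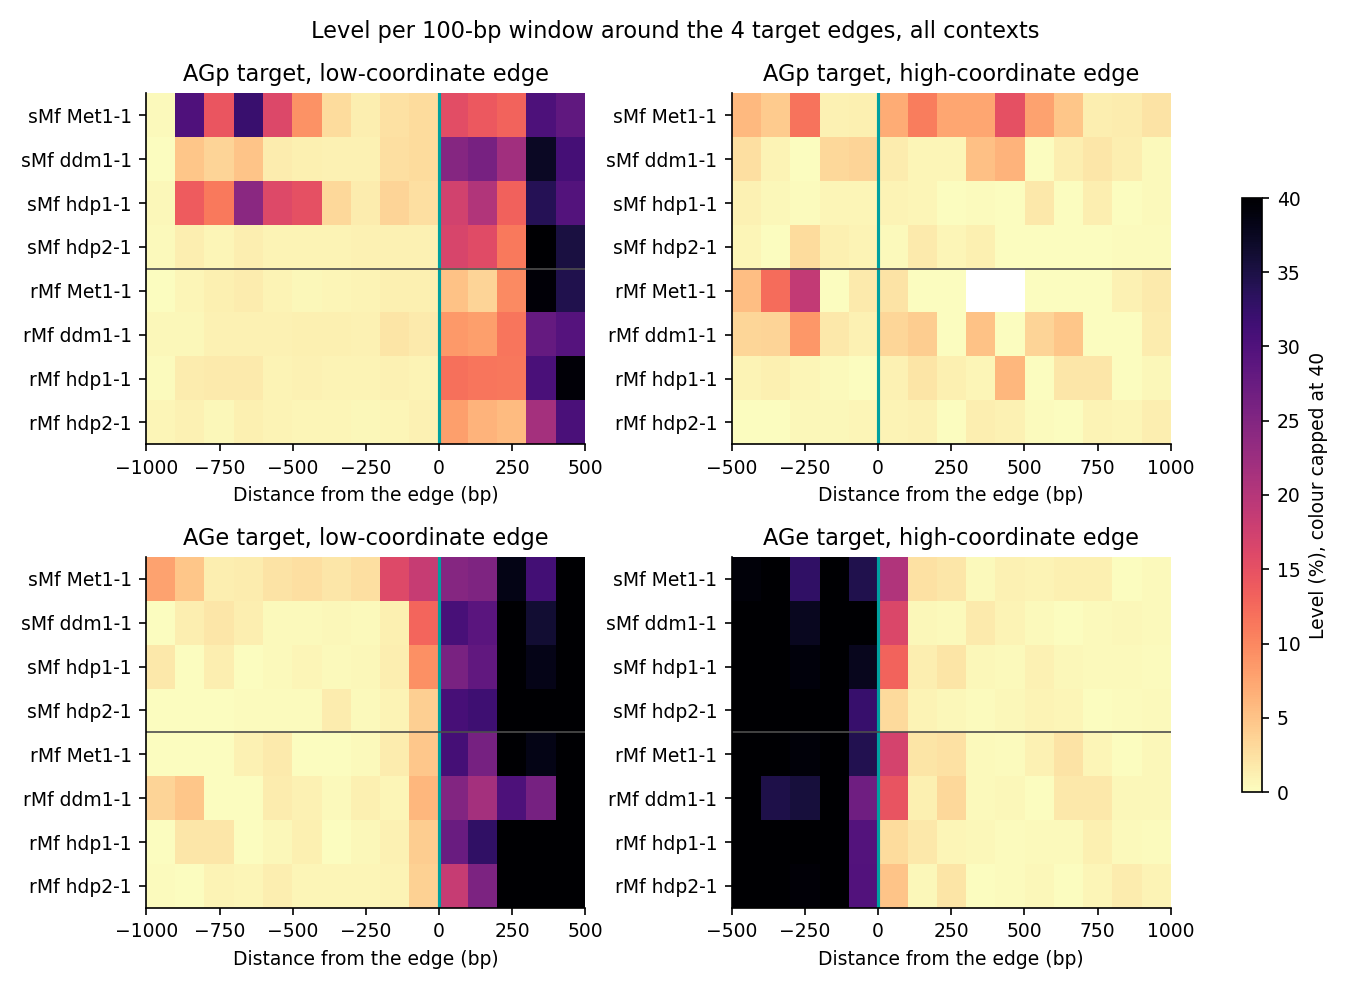
Level per 100-bp window over all contexts (colour, percent, capped at 40) against the distance from each of the 4 target edges (bp), with the 4 sMf libraries above the 4 rMf libraries in each panel; the vertical line marks the edge and white marks windows with no value. Colour beyond the low AGp edge appears in Met1-1 and hdp1-1 sMf and faintly in ddm1-1 sMf, and beyond the high AGp edge mainly in Met1-1 sMf.

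At the other 3 edges the reach differed in 1 or 2 alleles each. On the high side of AGp only Met1-1 differed in reach, with sMf 500 bp beyond the edge and rMf 200 bp inside it; the other 3 alleles ended 800 to 1000 bp inside the edge in both phenotypes. Over the 500 bp beyond this edge the level was 9.0% in Met1-1 sMf, against 1.05% in Met1-1 rMf, where 2 windows had no value; in the other alleles it was 0.423% to 2.31% in sMf and 0.844% to 2.89% in rMf. On the low side of AGe the reach was farther in sMf by 200 bp in Met1-1 and 100 bp in ddm1-1, and equal in hdp1-1 and hdp2-1 (mean 75 bp, and 250 bp with 200-bp windows). In the 200 bp beyond that edge (10384102 to 10384301) the level was 17.3% in Met1-1, 7.28% in ddm1-1, 5.4% in hdp1-1 and 2.48% in hdp2-1 sMf flowers, against 3.10%, 3.54%, 2.60% and 2.32% in rMf flowers. Over 500 bp beyond it the mean difference was 2.43 percentage points ± 3.11, with all 4 pairs higher in sMf (exact sign-flip permutation p = 0.125, adjusted p = 0.375), and it was 0.906 without the Met1-1 pair and 1.55 over 1000 bp. On the high side of AGe only hdp1-1 differed in reach, by 100 bp: the first 100 bp beyond (10387102 to 10387201) had 20.5% in Met1-1, 16.3% in ddm1-1, 13.0% in hdp1-1 and 3.0% in hdp2-1 sMf flowers, against 16.9%, 14.6%, 2.94% and 4.94% in rMf flowers.

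At single cytosines no difference was called. Among 2167 cytosines that were above 0 in at least 2 of the 8 libraries, limma with the allele as a block called 0 at a Benjamini-Hochberg adjusted p under 0.05, and its smallest adjusted p was 0.463. At an unadjusted p under 0.05 there were 223, of which 210 were higher in sMf (9.69% of those tested) and 13 lower (0.6%). CpG cytosines of the AGp target made up 14 of the 210 and those of AGe 33; none of either was among the 13. Higher in sMf in all 4 pairs were 9.56% of the 2091 cytosines with 4 complete pairs, and lower in all 4 were 0.861%. Beside this, 17 of the 23 AGp CpG cytosines that passed the filter (73.9%) and 29 of the 52 in AGe (55.8%) were higher in all 4 pairs, and 0 were lower in all 4. With values at the deposited coordinates these shares were 36.4% and 19.6%. Among CHG cytosines 11 of 36 in AGp and 12 of 65 in AGe were higher in all 4 pairs. Among CHH cytosines 47 of 337 in AGp and 28 of 632 in AGe were higher in all 4, and 3 and 15 were lower.

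The direction was not carried by a few CpG cytosines. In AGe the CpG level was higher in sMf at 34 of 52 cytosines in Met1-1, at all 52 in ddm1-1, at 48 in hdp1-1 and at 45 in hdp2-1, with median differences of 2, 32, 19 and 3.5 percentage points. In AGp it was higher at 20 of 23 in Met1-1, 22 in ddm1-1, 21 in hdp1-1 and 22 in hdp2-1, with median differences of 6, 37, 9 and 7. CHH cytosines of AGe were mostly lower in sMf in 2 alleles: 476 of 632 were lower in Met1-1 and 472 in hdp1-1, whereas 387 were higher in ddm1-1 and 505 in hdp2-1. Cytosines of a library share its plants and reads and are not replicates.

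**Figure D4:**
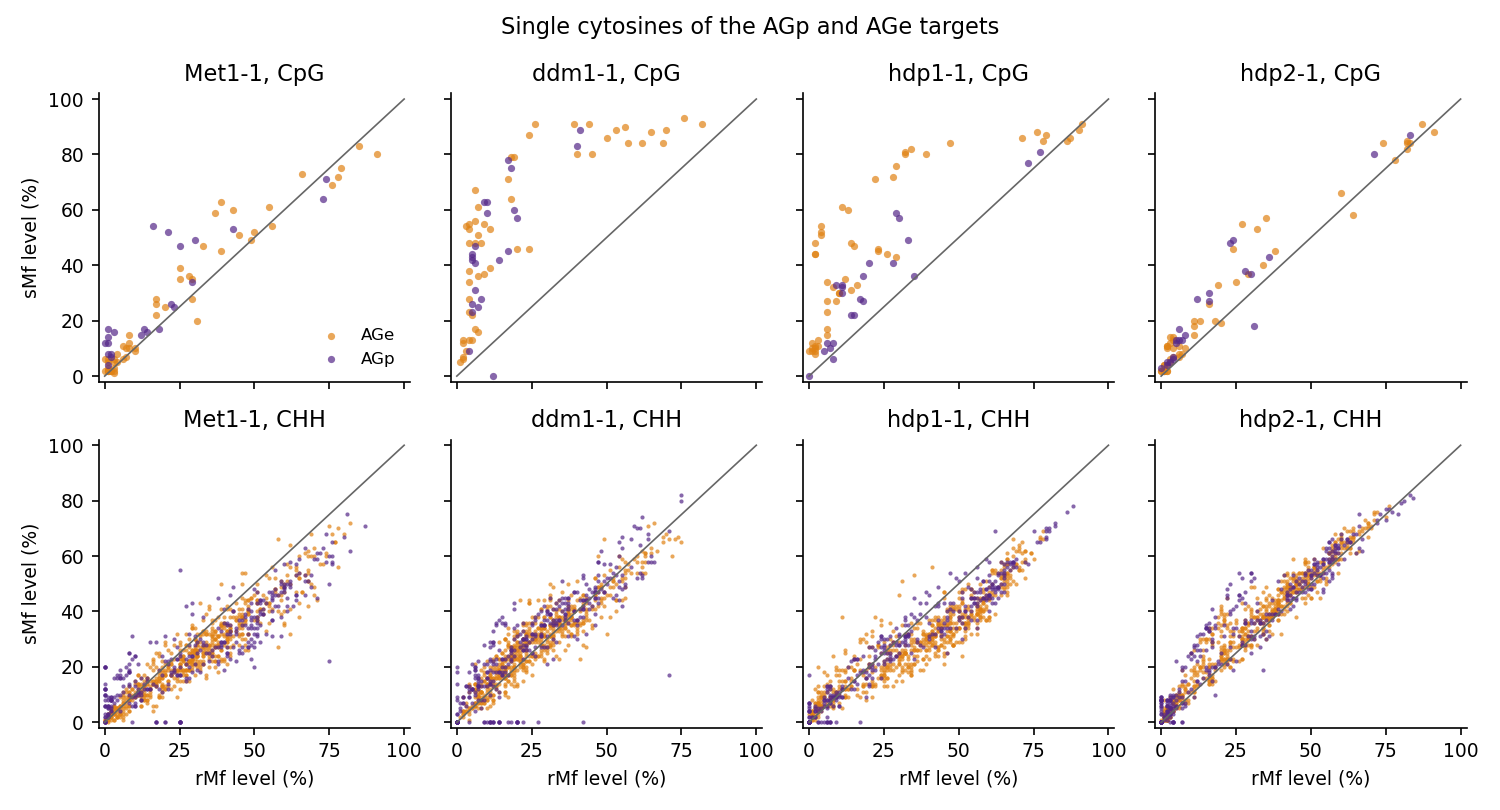
Level in sMf (percent, vertical axis) against level in rMf (percent, horizontal axis) at single CpG cytosines (upper row) and CHH cytosines (lower row) of the AGe target (orange) and the AGp target (violet), 1 panel per allele; the line marks equal levels. CpG points lie mostly above the line, all 52 AGe points in ddm1-1, and the CHH clouds lie below it in Met1-1 and hdp1-1.

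The CpG cytosines whose smallest difference among the 4 pairs was largest lay at the low rim of AGp. The CpG dyad at 10380690 and 10380691 had 52%, 78%, 57% and 49% on the plus strand and 54%, 75%, 59% and 48% on the minus strand in Met1-1, ddm1-1, hdp1-1 and hdp2-1 sMf flowers. In rMf flowers it had 21%, 17%, 30% and 24% on the plus strand and 16%, 18%, 29% and 23% on the minus strand. On the log2 odds scale the differences were 2.29 (SE 0.49) and 2.40 (SE 0.41), each with an adjusted p of 0.463 from limma. The 100-bp window that holds only this dyad had 35.5%, 39.5%, 66.5% and 66.0% CpG methylation in Wt flowers of these alleles, so rMf flowers lay below Wt in all 4 alleles and sMf flowers, at 58.0% in hdp1-1 and 48.5% in hdp2-1, below Wt in those 2. Sites in the other contexts that were chosen by the same rule lay within 100 bp of it: the CHG cytosine at 10380763 had 17%, 27%, 21% and 13% in sMf flowers, against 2%, 7%, 9% and 4% in rMf flowers, and the CHH cytosine at 10380680 had 25%, 35%, 27% and 28%, against 8%, 16%, 20% and 11%. In AGe the CpG cytosine at 10384415, near the low edge, had 47%, 64%, 45% and 26% in sMf flowers, against 33%, 18%, 23% and 16% in rMf flowers. In the other direction the same rule gave the CHH cytosine 10386304 of AGe, with 47%, 44%, 52% and 61% in sMf flowers, against 66%, 53%, 65% and 65% in rMf flowers.

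All cytosines analysed, without the filter used for single cytosines, were also grouped into windows of 100 bp with at least 3 cytosines of a context. That minimum leaves out most CpG windows of AGp. In CpG, 14 of 69 windows (20.3%) were higher in sMf in all 4 pairs and 0 were lower; 6 of the 7 AGe windows and 3 of the 3 AGp windows were among the 14. The last AGe window (10387002 to 10387101) had 58.2% in Met1-1, 88.8% in ddm1-1, 80.0% in hdp1-1 and 52.2% in hdp2-1 sMf flowers, against 41.0%, 34.8%, 36.8% and 49.0% in rMf flowers. The window 10385702 to 10385801, on the high side of the AGe dip, had 28.5%, 68.2%, 60.0% and 26.8% in sMf flowers, against 27.5%, 19.7%, 13.0% and 12.2% in rMf flowers. Outside the targets the CpG window with the largest such difference lay in the block before AGp (10379902 to 10380001), with 60.0%, 6.75%, 48.0% and 1.5% in sMf flowers, against 1.00%, 0.750%, 2.25% and 0.750% in rMf flowers. In CHG, 8.91% of 101 windows were higher in sMf in all 4 pairs and 0.99% lower; in CHH, 9.41% of 170 windows were higher and 4.12% lower. Over all contexts 26 of 170 windows (15.3%) were higher and 10 (5.88%) lower; 4 of the 22 AGp and 3 of the 28 AGe windows were among the 26 and 0 of either among the 10.

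CpG dyads of AGe had like levels on both strands in both phenotypes. The 2 cytosines of a dyad differed there by 2.19 to 3.04 percentage points on average in sMf libraries and by 1.88 to 2.54 in rMf libraries. In AGp, with 11 to 14 dyads, they differed by 3.14 to 5.73 in sMf libraries and by 2.50 to 5.69 in rMf libraries, the highest of these in hdp2-1 rMf at a mean dyad level of 16.2%. Dyads with both cytosines at 50% or more numbered 6 in Met1-1, 14 in ddm1-1, 10 in hdp1-1 and 6 in hdp2-1 sMf flowers of the 26 in AGe, against 4, 4, 4 and 5 in rMf flowers, without overlap. In AGp they numbered 2 of 13, 4 of 11, 2 of 12 and 1 of 14 in sMf flowers, against 1 of 11, 0 of 12, 1 of 13 and 1 of 13 in rMf flowers. CHG dyads at this level in AGe numbered 20, 21, 21 and 21 of 29 in sMf flowers, against 23, 15, 18 and 18 in rMf flowers.

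Likeness between CpG profiles did not follow the allele pairs alone. Across the 52 CpG cytosines of AGe, Pearson's r was 0.972 between ddm1-1 sMf and hdp1-1 sMf, against 0.785 between ddm1-1 sMf and ddm1-1 rMf and 0.817 between hdp1-1 sMf and hdp1-1 rMf. In the other alleles sMf and rMf flowers of the same allele were close, with r = 0.966 in Met1-1 and 0.975 in hdp2-1. Other libraries of different alleles were as close, with r = 0.983 between hdp1-1 rMf and hdp2-1 rMf and 0.969 between hdp2-1 sMf and hdp1-1 rMf. These values describe cytosines of a single region, which share position and base composition in all libraries, in data of unknown depth.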

How the data were processed

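Bisulfite-treated DNA of pooled young flowers was sequenced, with FastQC 0.11.9, Bismark, HISAT2 and the build TAIR10 named, without roles, per the submitters' processing notes. The values the authors deposited are methylation levels in whole percent per cytosine, per the file headers and values, signed by strand. Absolute values were averaged. No coverage minimum or conversion rate was found in the sources used here, and the unexplained entry rc was treated as missing. The members, regions and lists were chosen with earlier results of these data known.

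The columns form 5 blocks, and the values of blocks 3 and 5, which hold the 8 libraries and their Wt libraries, were not in step with the coordinates: the sign matched the strand expected from block 1 in 60.0% and 63.6% of the entries compared. After realignment by a hidden Markov model of these signs (displacements up to 40 entries, sign error rate 0.003, rate of displacement change 0.004, least posterior 0.9) the match was 99.95% and 99.96%. Checked on magnitudes, which the model did not use, Pearson's r across cytosines with the Col AGp//AGe sMf library was 0.744 to 0.900 after realignment and 0.650 to 0.813 before it. Of 5709 entries, 68 with a repeated coordinate were dropped; 5283 cytosines were placed in both blocks. Both libraries of a pair lie in the same set and column block. No pair of libraries held identical values.

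Targets are runs of at least 5 windows of 100 bp with a mean level of at least 10% in the Col AGp//AGe sMf library, gaps of up to 5 windows bridged. Region levels weight cytosines equally. Differences were taken within an allele and tested with a two-sided exact sign-flip permutation over 4 pairs, Benjamini-Hochberg adjusted over 16 level tests and, separately, 12 edge tests; the pairing is by the allele the labels give. The p-values rest on the spread of the 4 pair differences. As no allele has a second library per phenotype, spread between alleles cannot be told there from spread between pools or libraries. For single cytosines limma 3.58.1 (R 4.3.3) was used (trended empirical Bayes, allele as block) on log2((p + 0.01)/(1 - p + 0.01)), p being the level as a fraction, for cytosines above 0 in at least 2 of 8 libraries with both values in at least 3 pairs; the fit and the realignment were tested on simulated data. Named cytosines are, per context and direction and where none was called, up to 3 that differ the same way in all 4 pairs with the largest smallest-pair difference; named windows are up to 3 with the largest mean difference. Alternatives covered the realignment, pairing, weighting, strand, edges, window size, thresholds, offset, filters and leaving out each pair. Computation used Python 3.11.15, numpy 2.4.6, pandas 2.3.3 and scipy 1.17.1. No genome sequence was used here.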

Additional observations from a re-analysis of the deposited data

Results flagged for a closer look

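Among 38 groups of 4 libraries examined, 4 held a library that stood far from the other 3; chance alone flags about 1 in 20 such groups. The CpG level of the CpG-only stretch was 5.125% in Met1-1 sMf, far below the other sMf libraries, and 0.833% in Met1-1 rMf, far below the other rMf libraries. Over the 500 bp inside the high side of AGp, Met1-1 sMf stood apart with 5.385%, where the other sMf libraries had 0.596% to 1.36%. The rMf libraries had 6.39% in Met1-1, 4.25% in ddm1-1, 0.596% in hdp1-1 and 0.449% in hdp2-1 there. Over the 500 bp outside the low side of AGe, ddm1-1 rMf stood apart with 1.947%, where the other rMf libraries had 1.33% to 1.38%.

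The CHH difference between sMf and rMf flowers went opposite ways between alleles. In AGp the extremes were -7.833 percentage points in Met1-1 and 3.772 in ddm1-1, and in AGe -7.032 in hdp1-1 and 3.937 in hdp2-1. The AGp values compare means over unequal sets of cytosines within a pair. With 1 library per allele and phenotype the difference between alleles was not tested.

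The suvh1-2 ARE//AGe sMf library has no rMf partner and entered no comparison above. Its CpG level was 18.93% in AGp and 36.37% in AGe, against 14.3% and 9.27% in suvh1-2 Wt flowers without construct.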

How the results depend on the processing

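The CpG differences kept their direction under every alternative run, at 4.94 to 16.7 percentage points in AGp and 2.50 to 20.5 in AGe, the lowest with values at the deposited coordinates. Of 362 alternative values for 38 results, 26 had the opposite sign. The paired tests could not pass 0.05 under any alternative, so their side of the threshold says nothing about stability. The shares of CpG cytosines higher in all 4 pairs moved to 36.4% in AGp and 19.6% in AGe at the deposited coordinates. The all-context AGp difference turned to 0.0599 with values at the deposited coordinates, 0.58 with windows weighted equally, 0.84 without cytosines listed at 0 in all 8 libraries, 1.26 on the minus strand and 1.02 with values in all 8 libraries (chosen after seeing the data). On the minus strand AGp CHH turned to 0.11 and AGe over all contexts to -0.38. AGp CHG turned to -1.0 with values at the deposited coordinates and -0.33 with target edges at 20%. The AGp high-side reach turned to -25 bp with windows at 5% and -200 bp with 200-bp windows. With flanks of 300 bp the inside difference turned to 0.21 on the low and 0.013 on the high side of AGe.

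Leaving out each allele pair gave -1.99 to 2.14 for AGp over all contexts, -2.77 to 1.09 for AGp CHH, -1.54 to 1.84 for AGe over all contexts, -3.41 to 0.24 for AGe CHH and -0.0537 to 2.06 for CpG in the CpG-only stretch. It gave -0.51 to 2.46 just outside the high side of AGp, -3.03 to 2.29 just inside the low side of AGe, and -3.18 to 1.16 inside and -0.11 to 0.82 outside its high side; the causes were not tested.

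With no replicate block, that is 4 sMf against 4 rMf libraries unpaired, the two-sided exact permutation p for CpG was 0.0286 in each target (adjusted p = 0.229), and the differences were the same 13.97 and 16.2; limma called 0 cytosines, with 178 at an unadjusted p under 0.05. limma also called 0 with offset 0.05, with no filter, with stricter filters, at the deposited coordinates and without any pair. The reach at the AGe edges gave no value with windows at 20% or with no gap bridged. Depth is unknown, so no level carries a counting interval, and unequal coverage between libraries cannot be weighed.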

Other observations

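Some other sMf and rMf libraries of the series, in plants with other constructs, gave these levels when measured over the same targets. The Ctr//AGe rMf libraries of Met1-1, ddm1-1 and Col and the Col AGe rMf library of set B are not among those given. Col AGp//AGe flowers, 1 library each, had CpG levels of 20.5% in sMf and 9.07% in rMf in AGp, and 29.98% in sMf and 18.8% in rMf in AGe; the sMf library is the one that set the target edges. Their AGe CHH levels were 33.2% in sMf and 34.0% in rMf. M317 AGe flowers had AGe CpG levels of 30.9% and 44.0% in 2 sMf libraries, against 17.6%, 19.2% and 23.9% in 3 rMf libraries. M318 AGe flowers had 1.75%, 33.8% and 36.4% in 3 sMf libraries, against 16.7%, 30.5% and 20.6% in 3 rMf libraries. Col AGe rMf flowers had AGe CpG levels of 35.1% and 31.4% in 2 libraries of set A, above the sMf libraries of Col AGp//AGe, Met1-1 ARE//AGe and hdp2-1 ARE//AGe. The M318 sMf library at 1.75% had 4.32% in CHG and 1.32% in CHH, close to unmethylated. None of these libraries with other constructs shares a column block with the 8 ARE//AGe libraries, and their values are given with no test.

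The entry rc was absent from the AGe target in all 8 ARE//AGe libraries, and it stood at 8 to 225 AGe cytosines in the 4 Wt libraries of the same alleles. In the AGp target it stood at 28 to 122 cytosines in sMf libraries and at 49 to 141 in rMf libraries. In the Wt libraries it stood at 22 to 358 AGp cytosines, the most in ddm1-1.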
